A study of Homo sapiens with 8 samples.

Results

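The HOX genes of the 4 human clusters were taken as every array probe whose gene symbol, or a symbol in its accession annotation, was HOX followed by a cluster letter and a number. This gave 39 of the 17125 gene symbols on the arrays and 1744 of 474411 non-control probes. HOXA held 11 genes, HOXB 10, HOXC 9 and HOXD 9. Of the HOX probes, 1711 carried the symbol as their gene name, and 33 more lay in the divergent promoter shared by HOXD13 and its neighbour. After spots with an outlier mark were removed, 1741 probes remained.

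The arrays compared chromatin immunoprecipitated with a SMAD3 antibody (SMAD3 IP, Cy5) with chromatin from an anti-flag mock immunoprecipitation (mock IP, Cy3) of the same cells. The cells were A549, a human lung adenocarcinoma line of alveolar epithelial type, which were starved of serum and then left without stimulation (the basal level) or given 2 ng/ml TGFβ1. Stimulation lasted up to 2 h by the labels and methods, and the study's own account of its results names a shorter time. Each condition had 2 replicates, labelled as biological, and each replicate used 2 slides with different probes, which made 8 arrays. All samples were genomic DNA of 1 cell line, so no cell type marker could be read from them.

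HOX genes encode homeodomain transcription factors that give cells their position along the body axis and the limbs. Within a cluster the genes lie in the order in which they are used from head to tail, and genes with the same number in different clusters are paralogs. In many differentiated cells part of each cluster is held silent by Polycomb proteins. TGFβ1 binds a receptor kinase pair that phosphorylates SMAD3, which then enters the nucleus and binds short DNA motifs, the best known of which is the SMAD box GTCT (AGAC on the other strand).

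The promoter sequences of 5 genes on which the results below turn are shown first, because the tested region surrounds them. They are the 250 bases before the annotated start in the RefSeq table of GRCh38.p14, written 5′ to 3′ on the strand of the gene, with every GTCT or AGAC in capitals. The HOXA7 window is at chr7:27156676-27156925, minus strand. The HOXA11 window is at chr7:27185233-27185482, minus strand. The HOXD13 window is at chr2:176092471-176092720, plus strand. The HOXD4 window is at chr2:176151300-176151549, plus strand. The HOXA6 window is at chr7:27147775-27148024, minus strand.
HOXA7: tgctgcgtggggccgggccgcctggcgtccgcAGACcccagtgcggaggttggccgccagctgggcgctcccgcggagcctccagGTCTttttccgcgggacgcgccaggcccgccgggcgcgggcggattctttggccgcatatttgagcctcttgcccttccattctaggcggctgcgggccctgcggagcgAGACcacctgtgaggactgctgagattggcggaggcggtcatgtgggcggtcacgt
HOXA11: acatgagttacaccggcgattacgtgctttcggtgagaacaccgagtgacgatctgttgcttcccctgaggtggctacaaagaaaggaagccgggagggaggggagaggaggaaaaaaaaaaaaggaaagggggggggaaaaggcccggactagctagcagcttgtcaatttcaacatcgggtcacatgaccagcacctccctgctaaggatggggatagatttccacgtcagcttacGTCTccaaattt
HOXD13: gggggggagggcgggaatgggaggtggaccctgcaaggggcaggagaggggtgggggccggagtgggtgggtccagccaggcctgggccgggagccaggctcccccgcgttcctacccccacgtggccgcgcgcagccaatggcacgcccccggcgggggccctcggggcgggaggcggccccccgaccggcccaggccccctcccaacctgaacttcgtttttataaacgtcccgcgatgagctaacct
HOXD4: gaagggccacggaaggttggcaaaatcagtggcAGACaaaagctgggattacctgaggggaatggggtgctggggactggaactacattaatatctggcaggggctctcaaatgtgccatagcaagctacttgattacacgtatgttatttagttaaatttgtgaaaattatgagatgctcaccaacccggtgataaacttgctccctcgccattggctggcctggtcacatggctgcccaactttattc
HOXA6: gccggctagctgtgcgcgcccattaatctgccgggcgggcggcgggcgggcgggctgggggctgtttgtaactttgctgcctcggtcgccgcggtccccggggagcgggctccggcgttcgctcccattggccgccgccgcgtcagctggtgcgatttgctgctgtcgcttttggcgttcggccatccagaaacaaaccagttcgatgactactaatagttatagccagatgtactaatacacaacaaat

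The SMAD box occurred 3 times in the HOXA7 window, once each in those of HOXA11 and HOXD4, and not in those of HOXD13 and HOXA6. RefSeq windows were at hand for 20 of the 39 HOX genes, which together had 26 different windows, several of them alternative starts of HOXA3 and HOXA10. GTCT or AGAC was found in 76.9% of these 26 windows and in 77.5% of all 34943 windows of the table. With both strands searched, the longer CAGAC, which contains the SMAD box, was found in 34.6% of HOX windows and 38% of all windows. The GC-rich motif GGCGC, also searched on both strands, was found in 73.1% of HOX windows and 44.4% of all windows. The median GC content was 58.8% in HOX windows and 58% in all windows, while the median share of CpG steps was 7.83% against 4.42%. These matches are only a description of the letters, and the annotated starts of the array, whose headers name no genome build, can differ from those of RefSeq.

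For each gene, the log2 SMAD3 IP to mock IP ratio, centred on the array median, was averaged over the probes that lay at most 2000 bp before and 800 bp after the annotated start (the promoter mean). A value of 0 is the level of the typical probe of the array. HOX genes had 9 to 28 such probes (median 16), and the median over all 16292 promoters tested was 10. Changes between conditions were tested with limma over all promoters, and a call means an adjusted p below 0.05.

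After TGFβ1 stimulation the promoter mean rose at 7 of the 39 HOX genes and fell at 13, while 19 were not called. The genes that rose were HOXA3, HOXA4, HOXA5, HOXA6, HOXC4, HOXC10 and HOXD4. The genes that fell included HOXA7, HOXA11, HOXA13, HOXB2, HOXB4, HOXB5, HOXB7, HOXB8, HOXC6, HOXD3, HOXD10 and HOXD13. Over all promoters 20.3% rose and 27.5% fell, so that 47.8% were called, and the share of HOX genes called was 51.3%. The median change was -0.15 over HOX genes and -0.06 over all promoters, on the log2 scale. With the normexp background correction 3 HOX promoters rose and 4 fell, and with the median of the probes in place of their mean 3 rose and 3 fell. Over all promoters 4.03% rose and 6.22% fell with normexp, and 4.79% and 6.18% with the median.

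**Figure D1:**
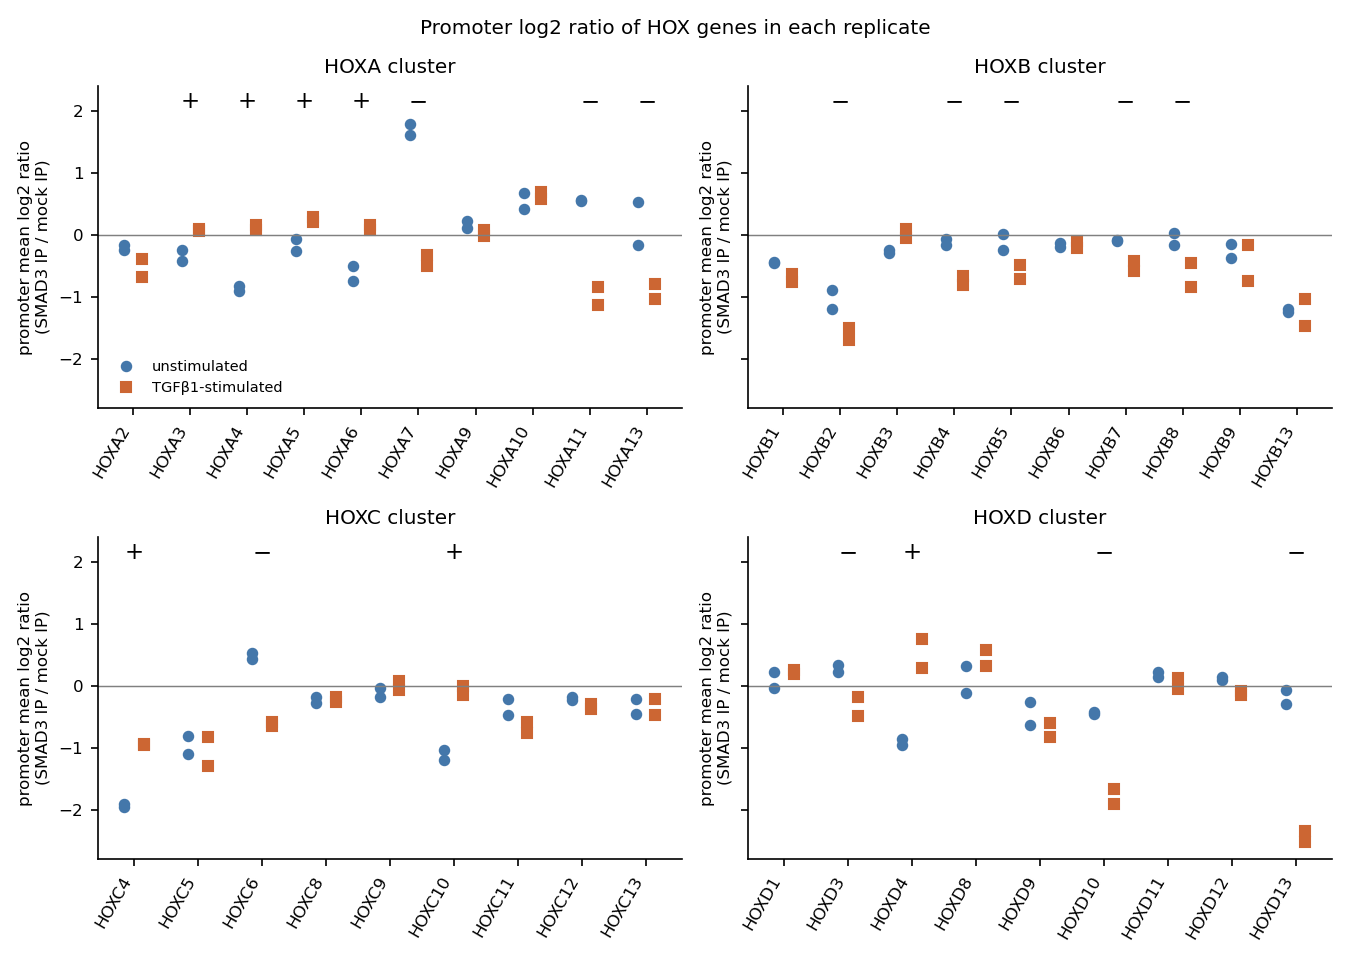
Promoter mean log2 SMAD3 IP to mock IP ratio (y axis, centred on the array median) for each of 38 HOX genes (x axis), with 1 panel per cluster. Circles are the 2 unstimulated and squares the 2 TGFβ1-stimulated replicates, and + or − above a gene marks a call of higher or lower after stimulation. HOXA7 moved from above 1.6 to below 0, and HOXD13 from near 0 to below -2.3.

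The largest falls were at HOXD13 and HOXA7. HOXD13, the last gene of its cluster, patterns the digits. Its promoter mean was -0.07 and -0.29 in the unstimulated replicates and -2.35 and -2.53 in the stimulated replicates. The change was -2.26 ± 0.15 (SE, n = 2 per condition), a 4.78-fold lower ratio with an adjusted p of 1.14e-05 by limma. HOXA7, from the centre of its cluster, patterns the trunk. It stood at 1.78 and 1.60 before stimulation, the highest promoter mean of any HOX gene, and at -0.32 and -0.50 after it. The change was -2.10 ± 0.14 (SE), a 4.30-fold lower ratio with an adjusted p of 1.41e-05. The conditions did not overlap at either gene. With all probes of the gene in place of the window the change was 0.04 at HOXD13 (adjusted p = 0.809) and -0.29 at HOXA7 (adjusted p = 0.127). Within 500 bp of the start HOXA7 had a change of -0.67 and with the median of its probes -1.20, both still called.

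HOXA11, needed for forearm and uterine development, fell from 0.54 and 0.56 to -0.85 and -1.14. With the normexp background correction this fall was no longer called (-0.94, adjusted p = 0.0546), nor was it with the median of the probes (-0.14, adjusted p = 0.512). HOXD10, which patterns the hindlimb and its motor neurons, fell from -0.45 and -0.42 to -1.67 and -1.90, so that its ratio lay below the array median in both conditions. HOXA13, whose mutation malforms hands, feet and the genital tract, stood at 0.53 and -0.17 before and at -0.80 and -1.04 after stimulation. Its adjusted p was 0.00446 with all 4 replicates, 0.0525 without stimulated replicate 1 and 0.0857 without stimulated replicate 2.

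The largest rise was at HOXD4, a hindbrain and neck gene. Its promoter mean was -0.86 and -0.96 at the basal level and 0.75 and 0.29 after stimulation. The change was 1.43 ± 0.17 (SE), a 2.69-fold higher ratio with an adjusted p of 0.000304. HOXC10, a gene of the lower spine and hindlimb, rose from -1.03 and -1.21 to -0.15 and 0.00. Its change of 1.05 was not above 0 with all probes of the gene in place of the promoter window (-0.11).

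HOXA4 and HOXC4 rose by the same amount, 0.99, but neither value held over its probes. HOXA4 had -0.91 and -0.83 before and 0.15 and 0.08 after stimulation, yet only 6 of its 16 window probes were well above background in both channels on every array. Over those 6 probes the change was -0.21, and within 500 bp of the start it was -0.15. HOXC4 had -1.96 and -1.91 before and -0.94 and -0.96 after stimulation, which was below the array median in every replicate, and within 500 bp of the start the change was -0.03. The array annotates 2 starts to HOXC4, and a split of its window by start was made after the values were seen. The 18 probes of the first start rose by 2.26 on average, and the 10 probes of the second start had a change of -1.30.

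HOXC6, a gene of the thorax, also had more than 1 annotated start. Its promoter mean fell from 0.43 and 0.52 to -0.65 and -0.59, a change of -1.09 ± 0.13 (SE) with an adjusted p of 0.000299. The call was lost with normexp (-0.35, adjusted p = 0.199), with all probes of the gene (-0.19, adjusted p = 0.107) and with the median of the probes (-0.14, adjusted p = 0.405). Its 18 probes of the first start had a change of -1.60, while the 5 probes of the second start had 0.72. The other 2 genes with several annotated starts were HOXA3 and HOXA10.

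In the HOXB cluster no promoter mean rose and 5 of 10 fell. HOXB4, known for the self-renewal of blood stem cells, had the largest fall of the cluster, from -0.07 and -0.17 to -0.67 and -0.82. This change of -0.62 ± 0.14 (SE) had an adjusted p of 0.00648. HOXB3, which helps pattern the hindbrain, had the largest rise of the cluster and was not called. Its promoter mean was -0.25 and -0.29 before and -0.06 and 0.10 after stimulation (adjusted p = 0.119), and none of its 9 window probes was well above background in both channels on every array.

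HOXA5 and HOXB5, the HOX genes best known for their part in lung development, were called in opposite directions. HOXA5 stood at -0.07 and -0.26 before and at 0.29 and 0.20 after stimulation (change 0.41, adjusted p = 0.0422). Within 500 bp of the start the change of HOXA5 was -0.54 (adjusted p = 0.0424), so that its direction depended on the window. HOXB5 stood at 0.02 and -0.24 before and at -0.71 and -0.49 after stimulation (change -0.49, adjusted p = 0.0311). HOXC5, the remaining paralog, had a change of -0.11 and was not called.

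Paralogs did not share a direction as a rule. In paralog group 4 all 4 genes were called, with HOXA4, HOXC4 and HOXD4 higher and HOXB4 lower. In group 7 both genes fell, HOXA7 by 2.10 and HOXB7 by 0.41 on the log2 scale. In group 13 HOXA13 and HOXD13 fell, while HOXB13 (-0.02) and HOXC13 (0.00) were not called. In group 9, with a gene in each cluster, no promoter was called. By place along the clusters, 8 of 12 genes of groups 1 to 4 were called (66.7%), and 7 of 11 of groups 5 to 8 (63.6%). In groups 9 to 13, 5 of 16 were called (31.2%), and over all promoters 47.8% were. The difference was not tested. Only 1 of the 20 window probes of HOXA3 was well above background in both channels on every array. Of the called promoters, HOXA3, HOXA5 and HOXB7 lost the call when any 1 of the 4 replicates was left out (adjusted p 0.0538 to 0.275), HOXB2, HOXB5 and HOXB8 without some of them (0.0603 to 0.196) and HOXD3 without stimulated replicate 2 (0.0708).

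Promoter means above the array median were called at few HOX genes with this window. Above the median, SMAD3 IP exceeded mock IP by more than at the typical probe. At the basal level 4 of 39 were called enriched, namely HOXA7, HOXA10, HOXA11 and HOXC6, while 20.7% of all promoters were. After stimulation 3 were called, namely HOXA10, HOXD4 and HOXD8, against 16.5% of all promoters. Means below the median were called at 16 HOX genes before and 23 after stimulation, against 38.1% and 42.5% of all promoters. These counts moved with the window. Within 500 bp of the start, 11 of 37 HOX promoters were enriched at the basal level, against 30.2% of all promoters. After stimulation 12 of 37 were, against 25.8%. The counts also moved with the zero point of the ratio. Loess within each array gave 17 enriched and 7 below at the basal level and 15 enriched and 13 below after stimulation, while over all promoters 42.1% and 43.8% were enriched and 20.7% and 20.1% below in the same order.

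HOXA10, which acts in the uterus and in blood progenitors, was the only HOX gene enriched in both conditions, as were 8.22% of all promoters. Its promoter mean was 0.42 and 0.67 in the unstimulated and 0.70 and 0.58 in the stimulated replicates. The conditions overlapped, and the change of 0.10 ± 0.15 (SE) had an adjusted p of 0.637. HOXD8, a trunk gene, was called after stimulation alone, with 0.31 and -0.12 before and 0.58 and 0.32 after it, and its change of 0.36 had an adjusted p of 0.141.

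The ratio can move through either channel. Of the 20 HOX promoters whose ratio was called, the mock IP signal moved further than the SMAD3 IP signal at 15 and less at 5. This count was not made over all called promoters, so it cannot be read as a trait of HOX genes. No HOX promoter had a called change of the SMAD3 IP signal, against 0.798% of all promoters higher and 1.74% lower. The mock IP signal rose at HOXB8 and HOXD13 and fell at HOXB6, a trunk gene, and at HOXC4, against 6.44% of all promoters higher and 7.57% lower. The channel counts depended on single libraries. Called mock IP changes at HOX promoters became more numerous when an unstimulated replicate was left out, and were lost when a stimulated replicate was left out. Such fits leave 1 replicate in a condition, and no share over all promoters is given for them. With normexp no HOX promoter had a called change of the mock IP signal.

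At HOXD13 the mock IP signal, as log2 above the array median, was 2.71 and 3.75 before and 5.39 and 5.54 after stimulation. This rise of 2.23 ± 0.41 (SE) had an adjusted p of 0.0438, and it was not called with a replicate block or with normexp. The SMAD3 IP signal at the same promoter was 2.83 and 3.59 before and 3.05 and 3.09 after stimulation, a change of -0.14 with an adjusted p of 0.883. The lower ratio at HOXD13 thus came with more mock IP signal.

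HOXA7 showed the opposite make-up. Its SMAD3 IP signal was 4.66 and 5.72 before and 3.09 and 3.12 after stimulation, a change of -2.08 ± 0.41 (SE) with an adjusted p of 0.0799. Its mock IP signal was 2.68 and 3.99 before and 3.41 and 3.54 after stimulation, a change of 0.14 with an adjusted p of 0.873. HOXC6 also had the larger change in the SMAD3 IP signal, -1.42 (adjusted p = 0.0717), beside -0.39 in the mock IP signal.

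At the promoters of HOXD4 and HOXC4, where the ratio rose, the mock IP signal was lower in both stimulated replicates than in either unstimulated one. HOXD4 had mock IP signals of 3.45 and 4.56 before and 1.90 and 2.20 after stimulation, a change of -1.95 (adjusted p = 0.0681), while its SMAD3 IP signal had a change of -0.64. HOXC4 had mock IP signals of 3.99 and 3.91 before and 1.86 and 1.82 after stimulation, a change of -2.11 ± 0.18 (SE) with an adjusted p of 0.0101. Its SMAD3 IP signal had a change of -1.06 (adjusted p = 0.143). HOXB6 had a mock IP change of -1.17 (adjusted p = 0.0313) and a SMAD3 IP change of -1.09, and its ratio had a change of 0.01.

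**Figure D2:**
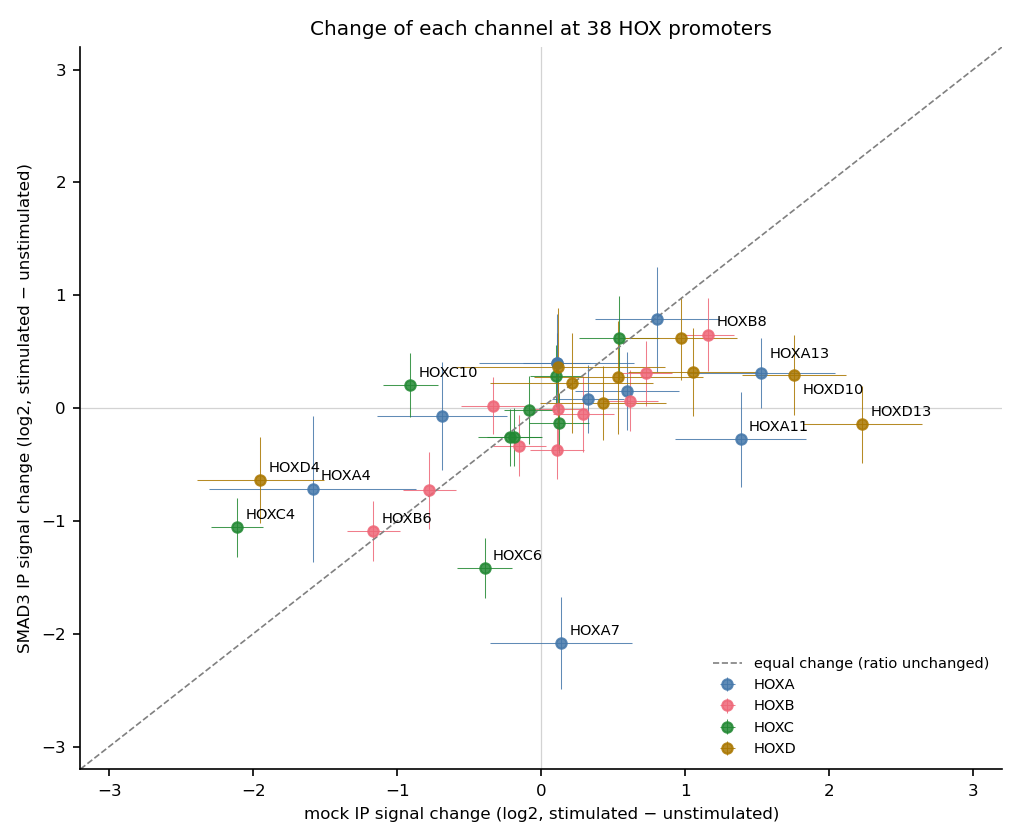
Change of the mock IP signal (x axis) against change of the SMAD3 IP signal (y axis) at 38 HOX promoters, both as log2 of stimulated over unstimulated after centring on the array median. Points are genes coloured by cluster, bars are standard errors, and the dashed line marks equal change in both channels. HOXD13, HOXC4 and HOXD4 lie far out along the mock axis, and HOXA7 lies low on the SMAD3 axis.

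Single probes showed where along each gene the signal lay. Of the 1741 HOX probes, 216 were called higher and 266 lower after stimulation. With the normexp background correction 39 were higher and 71 lower, and both counts were also smaller when any 1 replicate was left out. No share of all probes is given for these other settings, so these smaller counts cannot be read as a trait of HOX genes. Because array content differed, clusters were set beside the slide that held them: HOXA (chromosome 7) and HOXD (chromosome 2) lay on slide 1, and HOXB (chromosome 17) and HOXC (chromosome 12) on slide 2. Cluster and slide can therefore not be told apart where a slide 1 cluster is set against a slide 2 cluster.

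On slide 1, 8.13% of all probes were higher and 10.3% lower after stimulation. In HOXA 54 of 519 probes were higher (10.4%) and 65 lower (12.5%), and in HOXD 48 of 381 were higher (12.6%) and 56 lower (14.7%). On slide 2, 12.9% of all probes were higher and 14.5% lower. In HOXB 50 of 393 probes were higher (12.7%) and 74 lower (18.8%), and in HOXC 64 of 448 were higher (14.3%) and 71 lower (15.8%). The share of probes well above background in both channels also stood above the slide, at 41.2% in HOXA and 40.4% in HOXD against 29.5% of slide 1, and at 41.7% in HOXB and 43.8% in HOXC against 38.6% of slide 2. Among such probes alone, 17.7% of the 728 HOX probes were higher and 24.5% lower, against 19.0% and 25.5% of all such probes, so that the HOX shares were near the background.

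**Figure D3:**
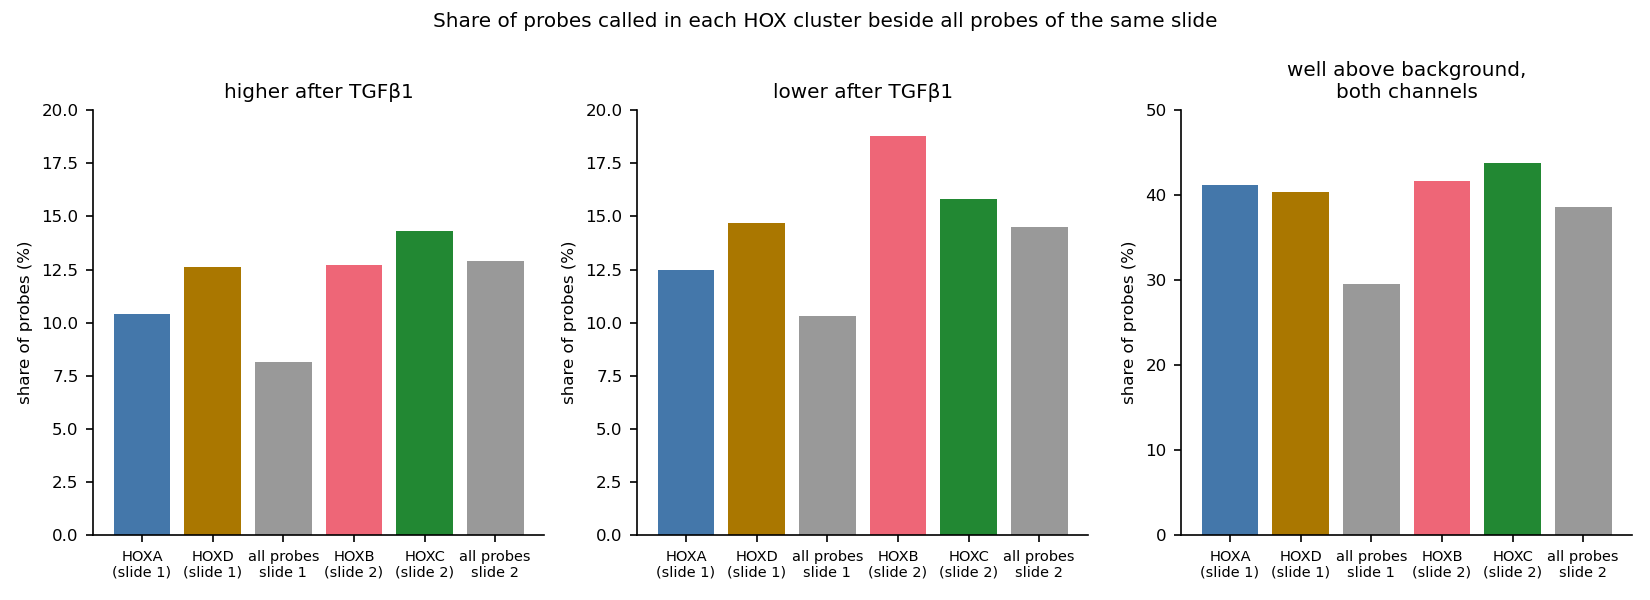
Share of probes (y axes, %, from 0) called higher after TGFβ1, called lower after TGFβ1, and well above background in both channels, for each HOX cluster and for all probes of its slide (grey bars). HOXA and HOXD stand above slide 1 in all 3 panels, with 10.4% and 12.6% higher against 8.13%, while HOXB (12.7% higher) lies beside slide 2 (12.9%).

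Enriched probes made up 12.1% of HOXA and 11.8% of HOXD at the basal level, against 7.68% of slide 1, and 13.5% of HOXB and 9.82% of HOXC, against 10.2% of slide 2. After stimulation the shares were 10.8% in HOXA and 13.1% in HOXD, against 7.67% of slide 1, and 9.41% in HOXB and 9.38% in HOXC, against 8.77% of slide 2. Among probes well above background in both channels alone, the basal shares were 29% in HOXA and 24.7% in HOXD against 22.2% of slide 1, and 22% in HOXB and 18.9% in HOXC against 22.7% of slide 2. The median log2 ratio of HOXA probes was 0.00 and 0.00 in the unstimulated and -0.01 and -0.03 in the stimulated replicates, and that of HOXD was 0.01 and -0.01, then 0.01 and 0.02. The median of HOXB was -0.04 and -0.03, then -0.19 and -0.08, and that of HOXC was -0.05 and -0.09, then -0.12 and -0.24. The medians of HOXB and HOXC were thus below 0 in every replicate, whereas the median of all probes is 0 by construction. For probes well above background in both channels, the basal log2 ratio of each probe was averaged over its replicates before the median was taken. This median was -0.67 in HOXB and -0.51 in HOXC, and -0.45 over all such probes of slide 2.

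Probes enriched in both conditions were found in most HOX genes. There were 98 such HOX probes in 35 of the 39 genes (5.63%), against 4.27% of all probes, and 95 of the 98 were well above background in both channels on every array. Among probes of that kind alone the shares were 13% in HOX genes and 12.1% over the arrays, so that the HOX share was near the background. From the start to 800 bp downstream, 34 of 163 HOX probes were enriched in both conditions (20.9%), against 12.5% of all annotated probes at that distance. In the 500 bp before the start the shares were 7.69% and 11.3%. The difference between HOX genes and other genes in position was not tested.

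Ranked by the lower of the means of both conditions among probes well above background, the first of these lay at 392 bp in HOXA10, with a log2 ratio of 4.76 and 4.67 before and 5.27 and 5.30 after stimulation. The probe at 512 bp in HOXD13 had 4.30 and 4.04 before and 6.13 and 5.99 after stimulation. The probe at 542 bp in HOXB8, a trunk and blood progenitor gene, had 4.00 and 4.15 before and 4.16 and 4.17 after stimulation. At these 3 probes SMAD3 IP exceeded mock IP in all 4 replicates. HOXC9, a thoracic gene, had 3.33 and 4.01, then 4.54 and 5.35, at 239 bp. HOXC4 had 3.58 and 3.68, then 3.97 and 4.23, at 444 bp. At HOXD13 this enriched probe was itself the 1 probe of the promoter window called higher after stimulation, while 9 of the 16 window probes were lower.

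**Figure D4:**
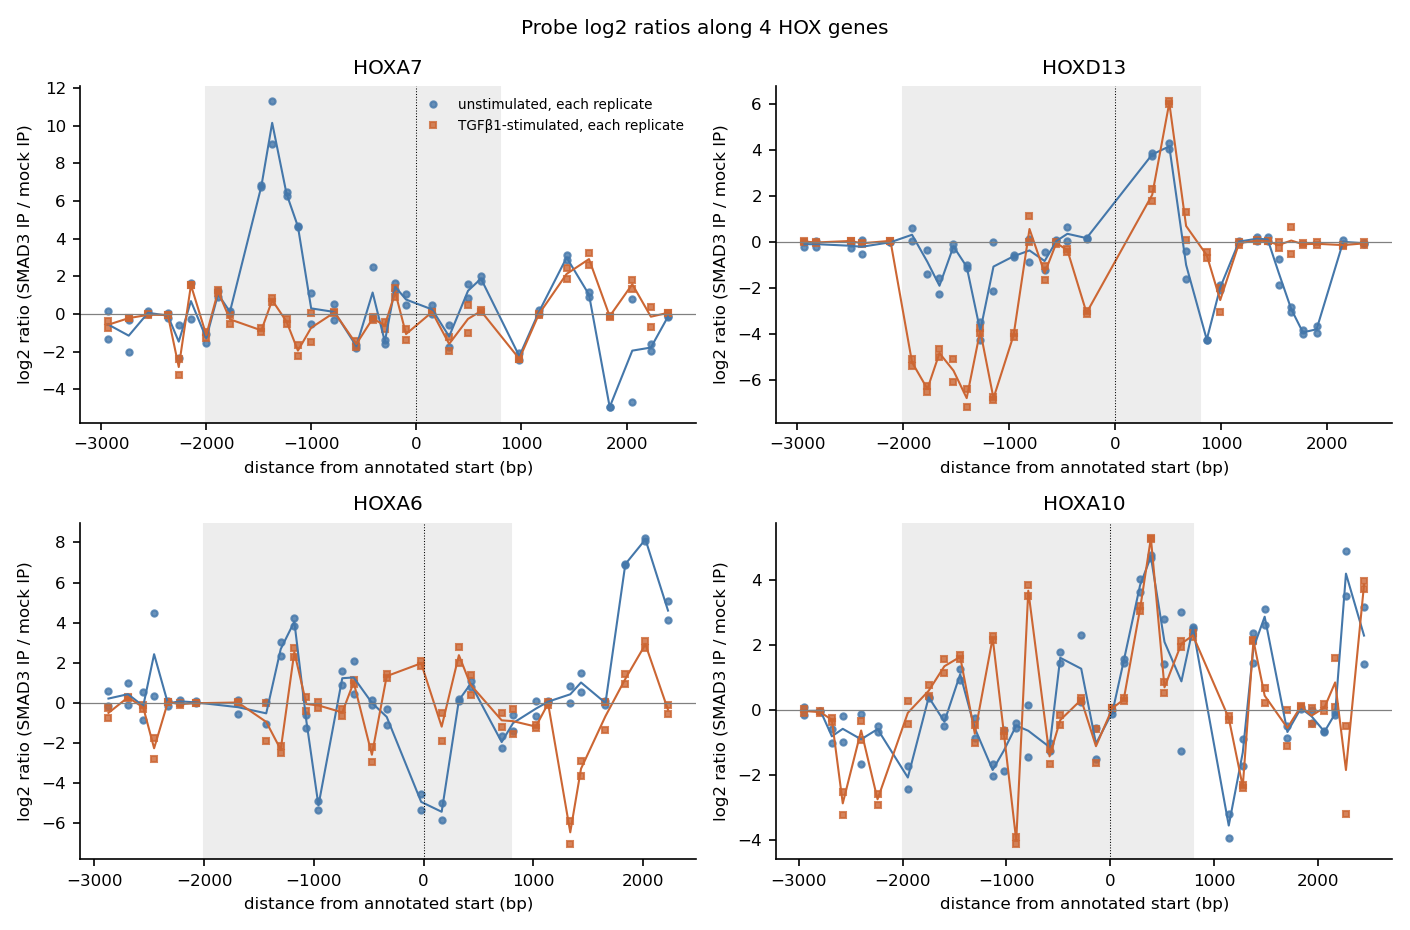
Log2 SMAD3 IP to mock IP ratio (y axes) of each probe by its distance in bp from the annotated start (x axes, negative is upstream) along HOXA7, HOXD13, HOXA6 and HOXA10 (probes of its first annotated start). Circles and blue lines are the unstimulated replicates and their mean, squares and orange lines the stimulated ones, and grey marks the promoter window. HOXA7 peaks near -1372 bp at the basal level alone, and HOXA10 peaks at 392 bp in both conditions.

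The largest changes at single probes well above background in both channels on every array were as follows. At -1372 bp of HOXA7 the log2 ratio was 11.29 and 9.0 before and 0.63 and 0.82 after stimulation (change -9.42, adjusted p = 0.0118). At -1475 bp of HOXA7 it was 6.83 and 6.72, then -0.98 and -0.77 (change -7.65, adjusted p = 0.00203). Both probes belonged to a run of 4 neighbouring probes, from -1475 to -1127 bp, that were all lower and all well above background, with a median change of -7.82 in SMAD3 IP and -1.01 in mock IP signal. At -348 bp of HOXC6 the ratio was 6.66 and 6.41, then -0.84 and -1.28 (change -7.59, adjusted p = 0.00218). At 1013 bp inside HOXA5 it was 3.79 and 3.63, then -4.77 and -4.15 (change -8.17, adjusted p = 0.00241). The fall in HOXA5 came with mock IP signals of 0.57 and 1.95 before and 7.59 and 8.0 after stimulation.

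Among the rises, the probe at -22 bp of HOXA6, just before the start by the array's annotation, had a log2 ratio of -5.33 and -4.53 before and 2.09 and 1.86 after stimulation (change 6.91, adjusted p = 0.0038). Its SMAD3 IP signal was 3.30 and 5.41, then 5.15 and 4.87, and its mock IP signal 8.43 and 9.81, then 3.05 and 2.93. The rise thus came with less mock IP signal. At -2947 bp of HOXA3, a gene of the throat glands, the ratio was -4.49 and -3.60, then 6.36 and 5.58 (change 10.02, adjusted p = 0.00358). The SMAD3 IP signal at this probe was 1.29 and 4.08 before and 8.64 and 8.35 after stimulation. Its mock IP signal was 5.58 and 7.55, then 2.28 and 2.68, so that both channels moved. At -1345 bp of HOXC4 the ratio was -6.37 and -5.52, then 1.40 and 1.78 (change 7.54, adjusted p = 0.00386). There the SMAD3 IP signal was 2.67 and 3.29, then 0.94 and 1.75, and the mock IP signal 8.48 and 8.13, then -1.03 and -0.85. In the divergent promoter at -4569 bp of HOXD13 the ratio was -5.56 and -7.54, then -0.26 and 0.89 (change 6.87, adjusted p = 0.0227). There the SMAD3 IP signal was 3.42 and 3.38, then 0.92 and 1.63, and the mock IP signal 8.79 and 10.79, then 1.17 and 0.66. At both probes the ratio thus rose while both signals were lower. With normexp the named probes of HOXA3, HOXA5, HOXC4, HOXC6 and HOXD13, the HOXB9 probe at -3795 bp and the HOXA7 probe at -1372 bp were no longer called, and the HOXA7 probe at -1475 bp, the HOXA6 probe and the HOXD11 probe at -2889 bp still were. The HOXA7 probe at -1372 bp was not called without either stimulated replicate (adjusted p 0.0858 to 0.0874), nor was the HOXD13 probe without any 1 replicate (0.0626 to 0.122).

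Some called probes lay side by side. With a run defined, after the values were seen, as 3 or more neighbouring HOX probes at most 500 bp apart and called in the same direction, 29 runs held 119 probes, of which 12 runs were higher and 17 lower. These were 24.7% of the called HOX probes, and the same rule over the arrays placed 20.9% of all called probes in runs. In 21 of the 29 runs the median change of the mock IP signal was larger in size than that of the SMAD3 IP signal, and in 8 it was smaller. The same was not counted for runs of other genes. The longest run held 9 probes of HOXC4, from -1838 to -740 bp of its first start, with a median ratio change of 4.68 and median changes of -7.58 in mock IP and -1.91 in SMAD3 IP signal, and 4 of the 9 were well above background in both channels on every array. At HOXA11 the run covered -347 to -25 bp, of which the part nearer the start falls in the stretch shown above if the array's start is that of RefSeq, with a median ratio change of -5.91 and median changes of 7.13 in mock IP and 1.1 in SMAD3 IP signal.

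Upstream of HOXB9, a thoracic gene, 8 neighbouring probes from -3453 to -2544 bp were lower, with a median ratio change of -8.0. The SMAD3 IP signal had a median change of -9.22 on the log2 scale while the mock IP signal had a median change of -0.27. Only 2 of the 8 were well above background in both channels on every array, so the median ratio change is no measured size. At -3336 bp the mock IP signal was well above background on 0 arrays and the SMAD3 IP signal on 2. Next to them, 5 probes from -4357 to -3795 bp were also lower, but there the mock IP signal had a median change of 5.64 and the SMAD3 IP signal 1.02. The probe at -3795 bp had the largest change of any HOX probe measured on every array, from 7.62 and 7.25 to -7.06 and -6.56 (change -14.25 ± 0.26 SE, adjusted p = 0.00203). Its SMAD3 IP signal was 10.09 and 9.83, then 0.40 and 1.54, and its mock IP signal 1.91 and 1.89, then 6.89 and 7.28.

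Upstream of HOXD11, a forearm gene, the order was turned. A run of 6 probes from -3753 to -2889 bp was higher after stimulation, with a median ratio change of 7.24 and median changes of 3.55 in SMAD3 IP and -2.90 in mock IP signal. Only 2 of these 6 probes were well above background in both channels on every array, so that this median is no measured size. A run of 5 probes from -5138 to -4161 bp was also higher, with a median SMAD3 IP change of 4.53 and a median mock IP change of -0.07. None of the 5 was well above background in both channels on every array, and they differed in make-up. At -5138 bp the SMAD3 IP signal was 3.80 and 6.55, then 0.15 and 0.03. The mock IP signal there was 7.65 and 9.02, then -0.09 and -0.14. The probe at -4910 bp also fell in both channels, while those at -4560, -4363 and -4161 bp rose in SMAD3 IP signal. At -2889 bp the log2 ratio was -7.97 and -4.81 before and 5.50 and 4.58 after stimulation (change 11.43 ± 1.30 SE, adjusted p = 0.0165), and without either stimulated replicate the adjusted p was 0.0971 to 0.107. Nearer the start, 4 probes from -2126 to -1613 bp, all well above background in both channels, were lower, with a median ratio change of -3.37 and median changes of 3.02 in mock IP and -0.14 in SMAD3 IP signal. This last run reached into the promoter window of HOXD11, while the others lay outside the windows of both genes. Neither HOXB9 (change -0.19, adjusted p = 0.475) nor HOXD11 (change -0.15, adjusted p = 0.415) had a called promoter mean. With all probes of the gene, which take in the upstream stretches, the mean changed by -2.60 at HOXB9 (adjusted p = 1.31e-05) and by 1.26 at HOXD11 (adjusted p = 0.000435).

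**Figure D5:**
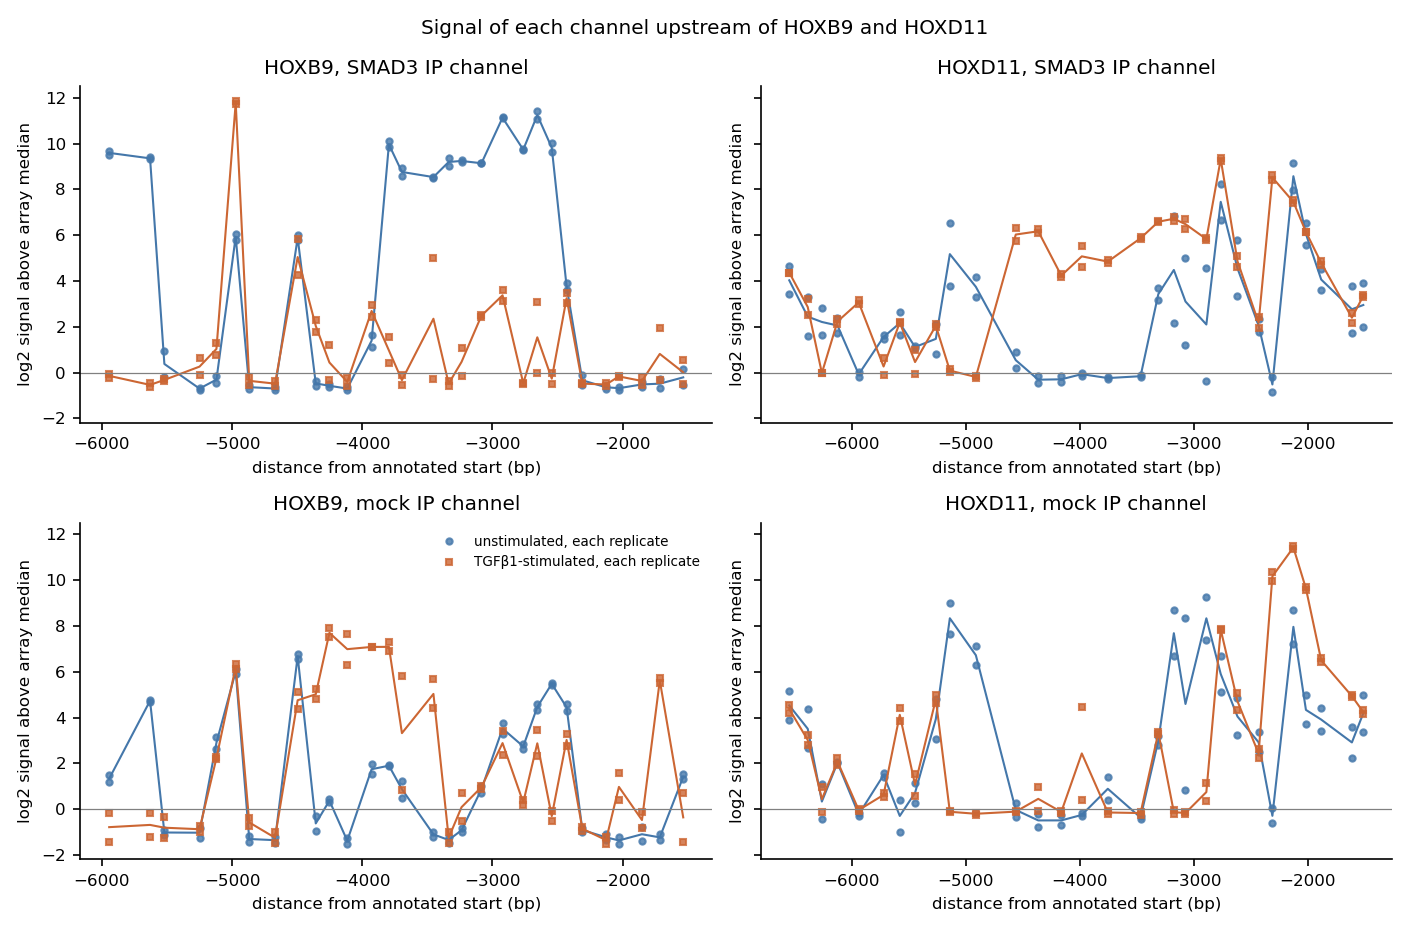
Signal of the SMAD3 IP channel (top) and mock IP channel (bottom), as log2 above the array median (y axes), by distance in bp from the annotated start (x axes) upstream of HOXB9 and HOXD11. Circles are unstimulated and squares stimulated replicates, and lines join their means. Upstream of HOXB9 the unstimulated SMAD3 IP signal stays high across neighbouring probes, at 10.09 and 9.83 at -3795 bp. Upstream of HOXD11 the stimulated SMAD3 IP signal is high from -4560 to -2889 bp.

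A peak was also fitted to all probes of each gene, with the shape expected from fragments of 200 to 700 bp, and its height is the fitted linear SMAD3 IP to mock IP ratio at the centre. Heights above 1.5 in both replicates were found at 35 of 39 HOX genes before and 33 after stimulation, against 66.6% and 61.3% of all 16871 genes fitted. HOX genes had more probes to choose a centre from, with a median of 45 against 26. Among the 13787 genes with 17 to 84 probes, the range found in HOX genes, the shares were 69.8% and 64.5%. Within that range the genes were not matched to HOX genes in probe number. With the normexp background correction 25 HOX genes passed in each condition (64.1%), against 34.7% of all genes before and 44% after stimulation. The difference from other genes was not tested.

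The basal peak of HOXA7 lay at -1372 bp with heights of 791 and 456 in the replicates. HOXA6, its neighbour, had basal heights of 464 and 346 at 2022 bp, and 4.72 and 2.81 after stimulation. The fitted basal maximum of HOXB9 and the stimulated maximum of HOXD11 fell on probes whose mock IP signal was too dim in that condition to be well above background, so no height is given for them. After stimulation HOXC9 had heights of 14.5 and 20.1 at 239 bp, where the basal heights were 7.98 and 11.7. HOXD13 had 19.1 and 11.3 at 512 bp after stimulation and 13.1 and 15.5 at 351 bp before it. HOXB3 reached 1.03 and 1.06 before and 1.44 and 1.26 after stimulation.

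Other genes of the HOX system were counted as lists, beside the 20.3% of all promoters that rose and the 27.5% that fell. Of 9 cofactor genes (PBX, MEIS and PKNOX families, which bind DNA with HOX proteins), 2 rose and 0 fell at an adjusted p below 0.05 by limma, with a median change of -0.12. The larger rise was at PKNOX1, from -0.28 and -0.41 to 0.67 and 0.62. Its mock IP signal had a change of -2.16 (adjusted p = 0.0179 by limma) and its SMAD3 IP signal -1.10 (adjusted p = 0.228). Of 21 tested genes of Polycomb and Trithorax complexes, which silence or keep open the HOX clusters, 7 rose and 1 fell, with a median change of 0.20. BMI1, a Polycomb repressive complex subunit, had the largest rise, from -1.92 and -1.63 to 0.64 and 0.48, and PHC2 was the gene that fell, from 0.79 and 0.58 to 0.06 and 0.37. At BMI1 the mock IP signal had a change of -2.68 and the SMAD3 IP signal -0.45, and its promoter mean rested on 4 window probes. Of 8 tested ParaHox and neighbouring homeobox genes, GSH2 (GSX2) rose from -1.50 and -1.17 to -0.84 and -0.95 and none fell.

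Beside these results stand the limits of the arrays as a whole. Replicates of a condition correlated at 0.825 to 0.949 over the probes of a slide, and replicates of different conditions at 0.205 to 0.219. The mock IP signal correlated at 0.697 to 0.699 between conditions and the SMAD3 IP signal at 0.802 to 0.819. With 2 replicates per condition, the p-values and SE use the spread between replicates, pooled over both conditions. The eBayes step of limma draws this spread towards that of all probes or promoters. The p-values measure no spread beyond these arrays.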

How the data were processed

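Processed and raw intensities of both channels, deposited by the authors per spot, came from the Agilent Feature Extraction software version 9.5.1.1. Per the file headers, the processed intensity was background-subtracted, detrended and scaled per dye, with a surrogate value for signals not above background. The deposited series matrix held the log2 ratio of the processed signals. The methods name UCSC hg17 for the study's genomic analyses, but the array files name no build for the probe positions, so only distances to annotated starts are given for probes. The precision is set by how far signals stood above background and by the few arrays.

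Control spots, 19 probes without a position and 1404 probes with an outlier mark were left out, which gave 472988 probes. The log2 ratio was centred by subtracting its array median. A gene needed 3 probes in its window. Tests used limma 3.58.1 (lmFit, eBayes) with Benjamini-Hochberg adjustment over all probes or all promoters, without a replicate block, and were tested on simulated data. R 4.3.3 and Python 3.11.15 were used. Values named in the text are, per cluster, the promoters with the largest rise and fall, promoters enriched in both conditions, the 5 single probes with the largest rise and the 5 with the largest fall, the 3 highest peaks per condition and HOXB3; further promoters, runs of probes, paralog groups and annotated starts were chosen after their values were seen, as was the split by annotated start. Values of 1 HOX gene, which stays in the counts, are not reported here. The HOX members and all gene lists were chosen with earlier results of these data known. Alternatives were the normexp correction (offset 50), loess, the series matrix, no centring, filters on dim probes, a replicate block, separate slides, other windows and peak settings, and leaving out each replicate. Same-numbered replicates did not deviate together over the probes (r = 0.00882 and 0.0235 on slides 1 and 2). The reported fits did not pair them, and whether same-numbered replicates were prepared together cannot be told from these correlations.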

Additional observations from a re-analysis of the deposited data

How the results depend on the processing

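The replicate block changed no call of the 24 promoters named. The series matrix ratios are those of the reported setting (largest difference 3.1e-06), so they could not change a call. With the replicate block the HOX promoters called were again 7 higher and 13 lower and those enriched 5 at the basal level and 3 after stimulation, while 184 probes were higher and 216 lower, the SMAD3 IP signal was lower at 2 promoters, and the mock IP signal was higher at 0 and lower at 1. With normexp, enriched probes numbered 23 (basal) and 54 (stimulated), changed probes 39 higher and 71 lower, enriched promoters 1 and 7, changed promoters 3 higher and 4 lower, and mock IP changes 0 and 0. Without centring, enriched probes numbered 537 and 703 and enriched promoters 20 and 18, and with loess enriched promoters numbered 17 and 15. Over all promoters 2.1% and 11.9% were enriched with normexp, and 54.2% and 60.7% without centring. For probes no share over the arrays is given under these settings, so the probe counts cannot be read as a trait of HOX genes. Promoters called above and below the zero point of the ratio split 4 to 16 (basal) and 3 to 23 (stimulated) by the reported setting. The split was 17 to 7 and 15 to 13 with loess, and 20 to 7 and 18 to 9 without centring. The median of all promoters moved from -0.12 and -0.18 to 0.15 and 0.18 and to 0.32 and 0.42 in the same order. Only without centring does a ratio of 0 mean equal processed signals of SMAD3 IP and mock IP. Restricted to probes well above background on every array in 1 channel or more, enriched promoters numbered 8 and 5, 4 promoters were higher, the SMAD3 IP signal was lower at 2 and the mock IP signal higher at 1, and with both channels 8 and 7 were enriched and 4 higher. All probes of the gene gave 2 and 1 enriched promoters, probes within 500 bp gave 11 and 12, and the median of the probes gave 2 and 1, with 3 higher and 3 lower. Over all promoters the enriched shares with these 3 settings were 9.25% and 7.21%, 30.2% and 25.8%, and 4.62% and 3.93%. With probes well above background in 1 channel or more they were 27.7% and 22%, and with both channels 35.5% and 28.6%. Leaving out 1 replicate at a time gave 110 to 184 enriched probes at the basal level and 110 to 156 after stimulation, 106 to 129 higher and 100 to 171 lower probes, 4 to 5 and 1 to 3 enriched promoters, 5 to 6 higher and 7 to 12 lower promoters, and mock IP signals higher at 0 to 19 and lower at 0 to 10 promoters. The cluster medians in this section (basal, then stimulated) are the replicate medians averaged within a condition. By the reported setting they were 0.00 and -0.02 in HOXA, -0.03 and -0.14 in HOXB, -0.07 and -0.18 in HOXC and 0.00 and 0.02 in HOXD. They became 0.00 and 0.02 in HOXA, 0.00 and 0.00 in HOXB and 0.00 and 0.00 in HOXC with normexp. With loess they were 0.01 and 0.02 in HOXA, 0.00 and 0.00 in HOXB, 0.00 and 0.01 in HOXC, and 0.02 and 0.03 in HOXD. Without centring they were 0.36 and 0.50, 0.53 and 0.56, 0.50 and 0.53, and 0.36 and 0.53 in the same order. With that restriction they were -0.22 and -0.30, -0.66 and -0.76, -0.66 and -0.71, and -0.16 and -0.11, and with both channels -0.03 and -0.16, -0.67 and -0.74, -0.53 and -0.56 in HOXA to HOXC and 0.08 after stimulation in HOXD, which with members by gene name alone was 0.03. The direction of single promoters turned for HOXA4 with well-above-background probes in 1 channel or more (-0.06), in both (-0.21) and within 500 bp (-0.15), for HOXA5 with the same 3 settings (-0.09, -0.09 and -0.54) and with all probes (-0.02), for HOXC4 within 500 bp (-0.03), and with all probes of the gene for HOXA6 (-0.86), HOXC10 (-0.11), HOXD11 (1.26) and HOXD13 (0.04). The causes were not tested. Normexp raises dim signals and so shrinks ratios by construction. Peak height counts stayed within 1.5 times the reported ones under all alternatives run.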
